A study of Mus musculus with 43 samples.

Results

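The comparison described here set retinas of male mice given short-chain fatty acids (SCFA) in the drinking water against retinas of male mice given none, 7 days post laser (dpl). It rests on 6 of the 43 RNA-seq libraries of the series, SCFA libraries 1 to 3 and control libraries 1 to 3, which were taken by their titles and all stand among the first 31 sample columns of the deposited table. All animals were male C57BL/6J mice, 9 weeks old when a laser was used to rupture Bruch's membrane and induce choroidal neovascularization (CNV), a mouse model of neovascular age-related macular degeneration. The SCFA group drank 67.5 mM sodium acetate, 25 mM sodium butyrate and 40 mM sodium propionate ad libitum, from before the laser until collection. The masses per litre that the labels give for butyrate and propionate run in the opposite order to these molarities, and the doses of these 2 salts are uncertain. The control group received the laser and no SCFA. Each library was made from a pool of 2 retinas of different animals of the same group, so that the 3 libraries of a group are separate pools. The treatment field of the labels reads control for every sample of the series, and the groups were therefore taken from the titles. SCFA libraries 4 and 5 of the same group stand among the last 12 columns and entered no test of the main comparison; their values are given as a second readout. In pooled whole retina, fewer cells of a type and less RNA per cell cannot be told apart.

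SCFA are made by gut bacteria from dietary fibre. They are taken up by monocarboxylate transporters, bind G protein-coupled receptors such as Ffar2 and Ffar3, feed acetyl-CoA metabolism, and butyrate and propionate inhibit histone deacetylases. Laser injury in this model opens the barrier between retina and choroid and is followed by activation of microglia, the resident macrophages of the retina, and of Müller glia, its main supporting cells. Immediate early genes, whose transcription starts within minutes of a stimulus and needs no new protein, record recent neuronal activity and growth factor signals in neural tissue.

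The libraries held 15138510 to 20980692 counts over 54532 genes, and Gngt1, the gamma subunit of rod transducin, stood at 2048 to 5045 CPM (counts scaled to the same total in each library), so that rod RNA was present in every library. SCFA libraries 1 and 3 stood apart from the rest. On the first principal component of log2 CPM, which held 58.6% of the variance, SCFA library 1 lay at -43.4 and SCFA library 3 at -58.7, while SCFA library 2 lay at 7.44 and the controls between 25.6 and 37.2. Correlations of log2 CPM across genes were 0.949 to 0.966 between SCFA libraries 1 or 3 and the controls, 0.980 to 0.983 between SCFA library 2 and the controls, and 0.985 to 0.990 among the controls. Base composition moved with this difference. In 5 equal bins of gene GC content, the median log2 fold change (SCFA minus control) ran from 0.35 in the bin with the lowest GC content over 0.12, -0.02 and -0.13 to -0.24 in the highest. In the lowest bin the median log2 ratio to the mean of the controls was 0.39 in SCFA library 1, 0.44 in SCFA library 3 and 0.19 in SCFA library 2, against 0.10, -0.03 and -0.08 in the controls. Lists with more than 1 call and the main genes are therefore given beside a fit without SCFA libraries 1 and 3 and a fit with an offset for GC content and gene length. Myelin transcripts were high in SCFA library 2 and in control libraries 2 and 3, and the myelin genes are set apart below.

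**Figure D1:**
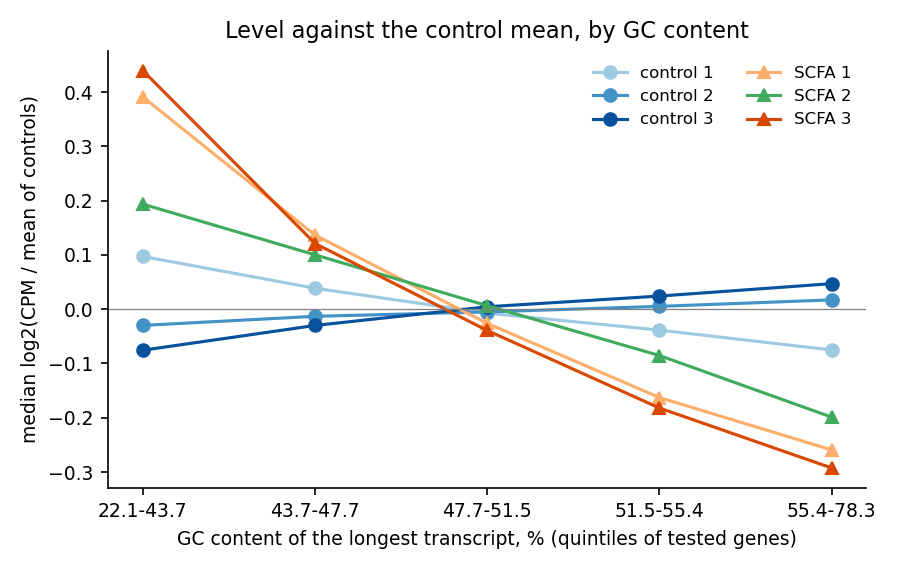
Median log2 of the CPM of genes over the mean of the 3 controls (vertical axis) in 5 bins of GC content of the longest transcript (horizontal axis, in percent), 1 line per library. In the bin of lowest GC content SCFA libraries 1 and 3 lie at 0.39 and 0.44, SCFA library 2 at 0.19 and the controls between -0.08 and 0.10, and in the highest bin the SCFA libraries are lowest.

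With SCFA, 546 of 16338 genes tested rose and 141 fell (edgeR quasi-likelihood test, Benjamini-Hochberg adjusted p under 0.1 and absolute log2 fold change over 1; such genes are called differentially expressed genes, DEGs, below). This was 4.2% of the genes tested, 3.34% higher and 0.863% lower. The adjusted p alone was passed by 14.3% of genes in the higher and 8.68% in the lower direction. In 18.9% of genes all SCFA libraries lay above all controls, and in 16% all lay below. SCFA library 2 was the lowest of the 3 SCFA libraries in 504 of the 546 higher DEGs, but lay above all controls in 510. The median log2 fold change of the higher DEGs was 1.26 over the 3 SCFA libraries and 0.72 in SCFA library 2 alone, and that of the lower DEGs was -1.29 and -1.03. Of the higher DEGs, 300 lay in the bin of lowest GC content and 16 in the highest, while 13 and 54 of the lower DEGs did. Protein-coding genes made up 369 of the higher and 102 of the lower DEGs, and 72 of 338 genes tested that are annotated as unverified transcripts were higher, 21.3%.

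The counts of DEGs changed with the libraries used. Without SCFA libraries 1 and 3, 19 genes rose and 20 fell (0.109% and 0.114%), of which 8 and 9 were among the DEGs above. With the offset for GC content and length 312 rose and 96 fell (1.91% and 0.588%), of which 277 and 78 were shared. With SCFA libraries 2, 4 and 5 against the same controls, 89 rose and 163 fell (0.545% and 0.999%), of which 32 and 50 were shared. These comparisons have the controls and SCFA library 2 in common. SCFA libraries 4 and 5 stand among the last 12 columns and all controls among the first 31. Wherever libraries 4 and 5 are used, an SCFA effect and a difference between these runs of columns cannot be told apart for them. Leaving out 1 SCFA library gave 1.69% of genes higher and 0.238% lower without library 1, 6.82% and 3.62% without library 2, and 1.65% and 0.477% without library 3. Leaving out 1 control gave 3.68% and 0.676% without control library 1, 2.09% and 0.22% without control library 2, and 2.0% and 0.299% without control library 3. With both myelin-rich controls left out 1 control remained and 0 genes passed in edgeR, with 1326 at an unadjusted p under 0.05. Called in the first fit and in the fits without SCFA libraries 1 and 3, with the offset, and with SCFA libraries 2, 4 and 5 were 6 genes, all lower: Nr4a1, Egr1, Egr4, Rn7sk, Gm1821 and Mlana.

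**Figure D2:**
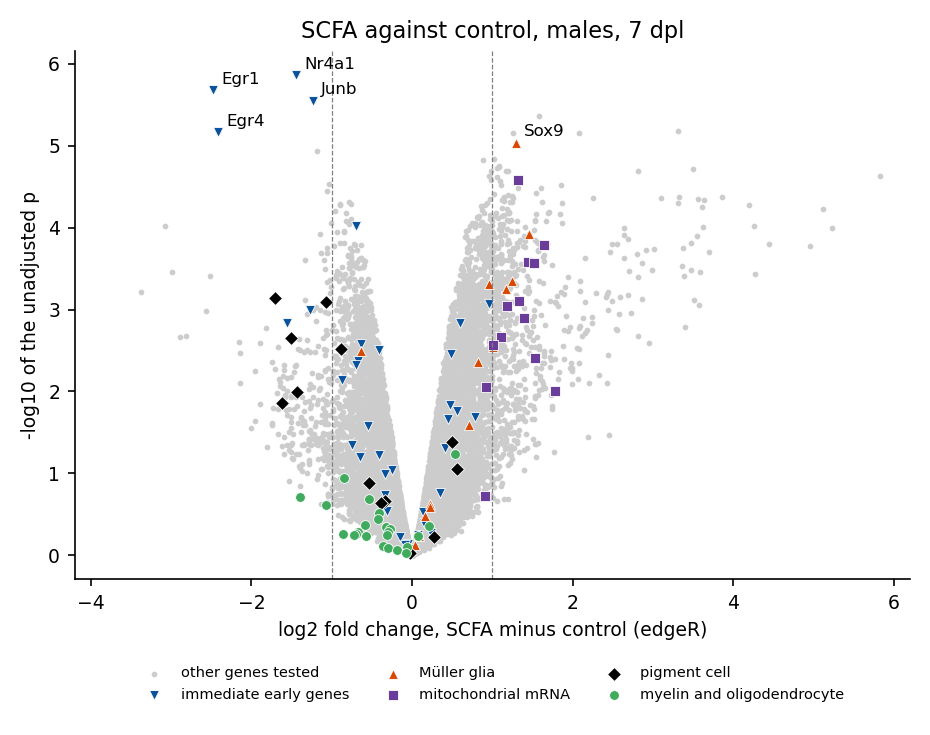
Each point is 1 of the genes tested, with the log2 fold change (SCFA minus control) on the horizontal axis and -log10 of the unadjusted edgeR p on the vertical axis, gene lists by colour and shape, and dashed lines at the fold threshold. Egr1, Egr4, Nr4a1 and Junb stand at the upper left, most mitochondrial mRNAs and several Müller glia genes at the right, and 1 gene lies beyond the axis limit of 6.

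The lower DEGs included 6 immediate early genes. Of 39 listed, 38 were tested, 6 fell and 0 rose, beside 0.863% lower and 3.34% higher DEGs among all genes tested. The 6 were Egr1, Nr4a1, Junb, Egr4, Arc and Ccn1. Of the 38, 24 lay below zero and 14 above. The list's median log2 fold change was -0.27, against -0.00 over all genes tested. Its median GC content was 54.2%, against 49.6% over all genes tested. With the offset for GC content and length the list's median log2 fold change was -0.10. Past the adjusted p alone were 12 lower and 7 higher members, beside 8.68% lower and 14.3% higher among all genes tested. With the offset 7 lower and 3 higher members were past it. Without overlap between groups there were 14 lower and 6 higher members, beside 16% lower and 18.9% higher among all genes tested. Without SCFA libraries 1 and 3 the list's median log2 fold change was -0.34. With the offset 5 members fell, Junb not among them, and without SCFA library 2 alone 7 fell and 2 rose.

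Egr1, a zinc finger transcription factor induced by growth factors and neuronal activity, stood at 157, 102 and 117 CPM in control libraries 1, 2 and 3 and at 33.9, 18.3 and 15.4 CPM in SCFA libraries 1, 2 and 3. All SCFA libraries lay below all controls. The gene fell by 2.48 on the log2 scale (SE 0.27, edgeR adjusted p = 0.013), a 5.57-fold lower level. Nr4a1, an orphan nuclear receptor of the same class of rapid response genes, was measured at 75.9, 61.9 and 60.4 CPM in the controls and at 28.9, 23.04 and 21.1 CPM with SCFA, a log2 fold change of -1.44 (SE 0.15, edgeR adjusted p = 0.013). Both groups were tight and far apart. Junb, a subunit of the AP-1 transcription factor, showed 43.5, 39.2 and 46.6 CPM against 19.6, 19.8 and 15.5 CPM, and fell by 1.24 (SE 0.14, edgeR adjusted p = 0.013). Egr4, a neural member of the Egr family, stood at 7.32, 6.37 and 5.19 CPM against 1.60, 1.04 and 0.90 CPM and fell by 2.41 (SE 0.30, edgeR adjusted p = 0.013). In these genes SCFA library 2 lay among the other SCFA libraries rather than near the controls.

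Egr1, Nr4a1, Junb and Egr4 passed the test whichever of the 6 libraries was left out. In SCFA library 2 alone against the controls their log2 fold changes were -2.77, -1.51, -1.12 and -2.59, and with the offset for GC content and length they were -2.27, -1.20, -0.90 and -1.96, so that with the offset Junb passed the adjusted p (0.0233) but not the fold threshold. SCFA libraries 4 and 5, scaled together with the 6 libraries, held Egr1 at 37.8 and 15.3 CPM, Nr4a1 at 24.7 and 24.8, Junb at 20.2 and 21.2, and Egr4 at 1.40 and 1.78. Each of these 8 values lay below every control.

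**Figure D3:**
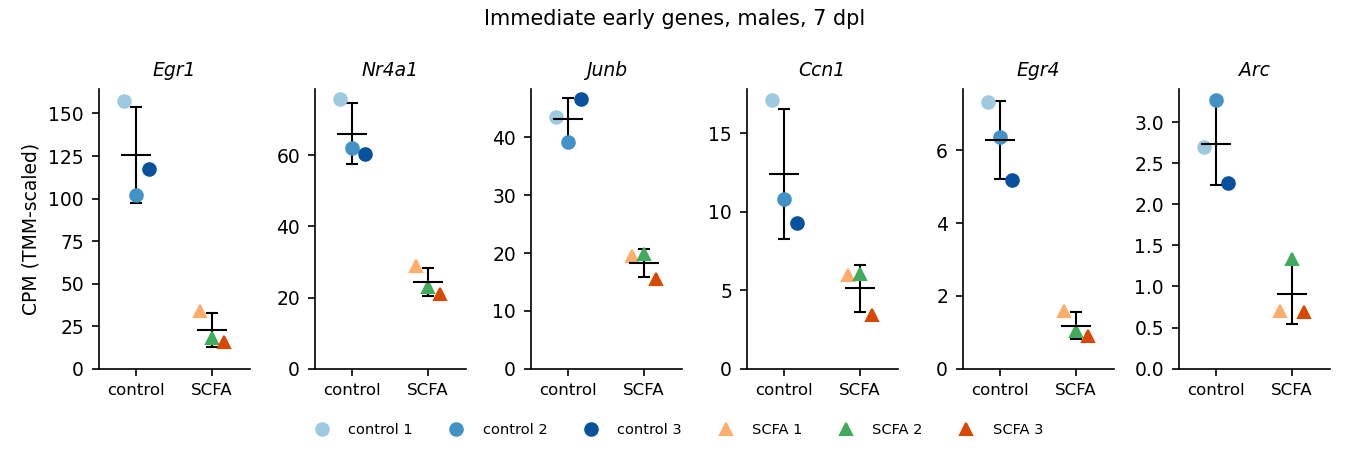
CPM on linear axes from 0 of the 6 called immediate early genes in the 3 control (circles) and 3 SCFA (triangles) libraries of males at 7 dpl, with the mean and SD of each group as a bar with whiskers. Every SCFA point lies below every control point in each gene.

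The remaining members were less uniform. Arc, which acts at the postsynaptic cytoskeleton, stood at 2.69, 3.27 and 2.25 CPM in the controls and 0.703, 1.33 and 0.693 CPM with SCFA (log2 fold change -1.55, SE 0.37, edgeR adjusted p = 0.0236). Ccn1, a secreted matrix-associated protein, stood at 17.1, 10.8 and 9.28 CPM against 5.95, 6.02 and 3.39 CPM (log2 fold change -1.27, SE 0.28, edgeR adjusted p = 0.0208). Neither passed without SCFA libraries 1 and 3 (edgeR adjusted p = 0.247 and 0.169), Arc was also lost without SCFA library 1 or control library 2, and Ccn1 without control library 1. SCFA libraries 4 and 5 held Arc at 2.68 and 1.94 CPM, against 2.28 to 3.30 CPM in the controls, so that library 4 lay within the control range. With SCFA libraries 2, 4 and 5 Arc was not called (log2 fold change -0.48, edgeR adjusted p = 0.323). Ccn1 stood at 3.30 and 5.54 CPM in libraries 4 and 5, below every control, and was called in that fit (-1.33, edgeR adjusted p = 0.0224). Fos, the classic partner of Jun proteins, passed the adjusted p but not the fold threshold, at 63.1, 56.0 and 59.3 CPM against 48.5, 25.4 and 36.8 CPM (log2 fold change -0.69, edgeR adjusted p = 0.041). Ier2 had a log2 fold change of -0.70 (edgeR adjusted p = 0.013) and Fosb one of -0.87 (edgeR adjusted p = 0.0514). In the other direction, Klf10, a transcription factor induced by TGF-beta, had a log2 fold change of 0.96 (edgeR adjusted p = 0.02), and Homer1, a scaffold of the postsynaptic density, one of 0.59 (edgeR adjusted p = 0.0235), both under the fold threshold. With the offset Klf10 was at 0.91 (edgeR adjusted p = 0.0374) and Homer1 at 0.04 (edgeR adjusted p = 0.883). Arc, Ccn1, Fos, Fosb, Ier2, Klf10 and Homer1 were chosen for naming after their values were seen.

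Promoter windows are shown for the called immediate early genes that have one, because these genes fell together. They are RefSeq windows on GRCm38.p6 from 250 bases before to 50 bases after a start site, written 5′ to 3′ on the gene's strand. Nr4a1 is at chr15:101266596-101266895 (plus strand), Egr4 at chr6:85513540-85513839 (minus strand), Junb at chr8:84978699-84978998 (minus strand) and Ccn1 at chr3:145649936-145650235 (minus strand). Capitals mark the half-site of the cAMP response element, TGACG or its reverse complement CGTCA.
Nr4a1: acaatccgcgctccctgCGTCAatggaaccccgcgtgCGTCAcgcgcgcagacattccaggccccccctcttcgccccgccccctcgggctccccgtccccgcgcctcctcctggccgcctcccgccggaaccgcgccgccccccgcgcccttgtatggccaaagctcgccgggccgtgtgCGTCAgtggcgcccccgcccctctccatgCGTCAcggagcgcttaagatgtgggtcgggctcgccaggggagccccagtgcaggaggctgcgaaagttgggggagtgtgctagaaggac
Egr4: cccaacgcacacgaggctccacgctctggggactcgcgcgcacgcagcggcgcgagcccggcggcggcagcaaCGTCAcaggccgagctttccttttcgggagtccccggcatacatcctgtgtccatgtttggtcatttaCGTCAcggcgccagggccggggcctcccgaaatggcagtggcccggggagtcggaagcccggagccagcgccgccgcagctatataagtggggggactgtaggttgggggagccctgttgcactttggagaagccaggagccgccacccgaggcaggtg
Junb: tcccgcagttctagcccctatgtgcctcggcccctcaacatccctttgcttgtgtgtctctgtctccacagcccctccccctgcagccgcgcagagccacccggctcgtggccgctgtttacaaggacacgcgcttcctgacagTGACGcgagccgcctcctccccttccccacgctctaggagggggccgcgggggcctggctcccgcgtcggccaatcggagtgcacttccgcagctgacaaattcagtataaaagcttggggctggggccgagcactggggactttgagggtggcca
Ccn1: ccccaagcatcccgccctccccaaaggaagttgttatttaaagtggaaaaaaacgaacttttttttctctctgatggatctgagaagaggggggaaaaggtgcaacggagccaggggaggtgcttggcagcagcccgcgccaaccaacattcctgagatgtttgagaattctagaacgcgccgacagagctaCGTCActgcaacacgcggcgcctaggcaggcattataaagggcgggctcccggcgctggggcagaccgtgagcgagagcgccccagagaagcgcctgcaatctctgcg

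Searched on both strands, the cAMP response element TGACGTCA was held by 1.79% of 32851 windows of 27025 genes, the AP-1 site TGANTCA by 7.81% and the serum response element (CArG box) by 1.63%. Among the 29 immediate early genes with a window, 3 held the cAMP response element, 0 the AP-1 site and 3 the CArG box. None of the printed windows held any of these letters in full. Each held the half-site TGACG, which was added to the search after the windows were read and which 20.8% of all windows and 19 of the 29 genes hold; the full cAMP response element contains it. Nr4a1 held it 4 times, at 233, 213, 69 and 40 bases before the start. Among all windows, which were not matched for base composition, 0.231% hold the half-site 4 or more times. Egr4 held it at 177 and 109 bases, Junb at 106 and Ccn1 at 58. A match is a description of the letters and not of a bound site.

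The same genes were read in the other males and in females, on a common scale of all 43 libraries. In males at 14 dpl, Egr1 stood at 102, 102 and 112 CPM in the controls and 30.6, 16.6 and 55.5 CPM with SCFA, a log2 fold change of -1.60 (edgeR adjusted p = 0.0234). At that day Nr4a1 fell by 1.12 (edgeR adjusted p = 0.0144), Junb by 1.18 (0.00718), Egr4 by 1.63 (0.035) and Ccn1 by 2.51 (0.00651), while Arc had a log2 fold change of -0.25 (0.698). These are other pools than those at 7 dpl. The fits for 14 dpl, for 3 dpl and for females also held the 6 male libraries of 7 dpl. Their adjusted p values are therefore not independent of the main comparison. At 3 dpl, where 1 SCFA library stood against 2 controls, Egr1 was at 28.4 CPM against 81.9 and 63.8 CPM, and Nr4a1 at 23 against 64.3 and 42.4, with no adjusted p under 0.21 for the 6 genes.

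In females at 7 dpl the SCFA libraries held Egr1 at 21.4, 35.1 and 28.3 CPM, and control libraries 1, 2 and 3 held it at 111, 128 and 41.2 CPM. Control library 3 was low in this group for Nr4a1 too, at 25.9 CPM against 89.8 and 72.5 CPM, within the SCFA range of 25.3 to 32.4 CPM. Female control library 2 holds Y-linked transcripts and was left out of the fit, which kept control libraries 1 and 3. The log2 fold changes in this fit were -1.44 for Egr1 and -1.05 for Nr4a1 (edgeR adjusted p = 0.455 for each). The differences of the SCFA effect between males at 7 dpl and the other 3 settings did not pass for Egr1, Nr4a1, Junb, Egr4, Arc or Ccn1 (lowest adjusted p 0.22, for Ccn1 against 14 dpl).

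**Figure D4:**
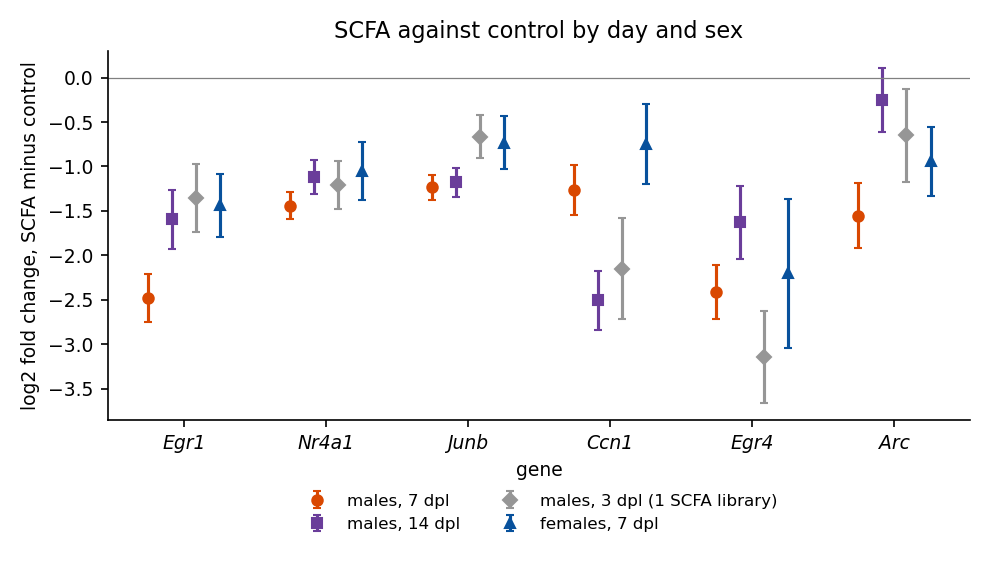
Log2 fold change (SCFA minus control, vertical axis) of the 6 called immediate early genes (horizontal axis) in males at 7, 14 and 3 dpl and in females at 7 dpl, with the SE as whiskers. All values lie below 0, and the whiskers of Arc at 14 dpl reach across it.

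Genes of Müller glia, which recycle glutamate and retinoids for neurons, were higher with SCFA. Of 15 listed and tested, 5 rose and 0 fell, beside 3.34% higher and 0.863% lower DEGs among all genes tested. The list's median log2 fold change was 0.71. Glul, the glutamine synthetase of these cells, stood at 1849, 2182 and 2345 CPM in the controls and 5219, 3127 and 6009.9 CPM with SCFA (log2 fold change 1.17, SE 0.24, edgeR adjusted p = 0.0175). Sox9, a transcription factor of Müller glia, stood at 11.4, 11.2 and 12.1 CPM against 27.6, 23.1 and 34.6 CPM (log2 fold change 1.30, SE 0.17, edgeR adjusted p = 0.013). All SCFA libraries were above all controls in both, and library 2 was the lowest of the 3. Sox2, another transcription factor of glia and progenitors, stood at 37.0, 36.4 and 38.8 CPM against 96.4, 49.98 and 121 CPM (log2 fold change 1.25, edgeR adjusted p = 0.0165). Spc25 rose by 1.45 (edgeR adjusted p = 0.013), and Rlbp1, the cellular retinaldehyde-binding protein, by 1.01 (edgeR adjusted p = 0.0318), the latter named after its value was seen and called in 1 of the 6 fits with a library left out. Not all members followed: Clu, a secreted chaperone, passed the adjusted p in the lower direction (log2 fold change -0.64, edgeR adjusted p = 0.0335), and Slc1a3, the glial glutamate transporter, had a log2 fold change of 0.16 (edgeR adjusted p = 0.519).

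The size of this difference followed SCFA libraries 1 and 3. The summed level of the list was 5031, 5623 and 6230 CPM in the controls, 9829 and 11592 CPM in SCFA libraries 1 and 3, and 6713 CPM in SCFA library 2. Without SCFA libraries 1 and 3 only Sox9 was called (log2 fold change 1.004, edgeR adjusted p = 0.0482), and without SCFA library 3 alone 2 members were. With the offset for GC content and length 5 members rose. SCFA libraries 4 and 5 held Glul at 2854 and 3363 CPM and Sox9 at 15.9 and 20.6 CPM, above the controls on the same scale. Sox2 stood there at 32.1 and 44.5 CPM against 36.8 to 39.2 CPM in the controls, and Rlbp1 at 481 and 634 CPM against 426 to 566 CPM, so that library 4 was not above the controls in these. With SCFA libraries 2, 4 and 5 the list's median log2 fold change was 0.16 and 0 members were called.

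Transcripts of the mitochondrial genome, which encodes subunits of the respiratory chain, were higher with SCFA in the 3 libraries compared. Of 13 mitochondrial mRNAs 11 rose and 0 fell, beside 3.34% higher and 0.863% lower DEGs among all genes tested. The median log2 fold change of the 13 mRNAs was 1.33. Their sum was 55919, 59286 and 53587 CPM in the controls and 145888, 79211 and 154676 CPM in SCFA libraries 1, 2 and 3. mt-Nd2, a subunit of complex I, stood at 4243, 4753 and 3928 CPM against 14408, 7074 and 15551 CPM (log2 fold change 1.52, SE 0.29, edgeR adjusted p = 0.0138). The groups did not overlap, and SCFA library 2 lay between the controls and the other SCFA libraries. mt-Nd4 rose by 1.44 (edgeR adjusted p = 0.0138) and mt-Nd6, the one complex I subunit encoded on the light strand, by 1.32 (edgeR adjusted p = 0.013).

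In 3 other fits these calls were lost: 0 of 13 were called without SCFA libraries 1 and 3, 0 with the offset for GC content and length, and 0 with SCFA libraries 2, 4 and 5. The median log2 fold changes in these fits were 0.44, 0.70 and -0.07. With the offset 7 of 13 were past the adjusted p under the fold threshold, and without SCFA libraries 1 and 3 mt-Nd6 had a log2 fold change of 0.99 (edgeR adjusted p = 0.0105). Their median GC content was 37.1%. Leaving out single libraries gave 6 calls without SCFA library 1, 7 without SCFA library 3, 7 without control library 2 and 4 without control library 3. SCFA libraries 4 and 5 held mt-Nd2 at 3248 and 2721 CPM and mt-Nd4 at 3589 and 3417 CPM, below every control on the same scale. The 80 nuclear genes of oxidative phosphorylation that were tested gave 0 DEGs and a median log2 fold change of -0.03. Among mitochondrial tRNAs and rRNAs 3 of 19 rose, beside 3.34% of all genes tested. The count was 0 without SCFA library 1, control library 1 or control library 3. It was 1 without SCFA library 3 or control library 2, and 12 without SCFA library 2. The median of that list was 0.81, and it turned to -0.35 without SCFA libraries 1 and 3, -0.26 with the offset and -0.78 with SCFA libraries 2, 4 and 5, where 0 members rose and 1, 2 and 5 fell. Within the list, mt-Rnr2, the large ribosomal RNA, had a log2 fold change of 1.42 (edgeR adjusted p = 0.0409) with overlapping groups, and mt-Tl1, a leucine tRNA, stood at 32.7, 31.8 and 27.9 CPM against 24.6, 11.8 and 22.9 CPM, a log2 fold change of -0.65 (edgeR adjusted p = 0.0845) under the fold threshold. It was called lower without SCFA libraries 1 and 3 (-1.37, edgeR adjusted p = 0.0142), with the offset (-1.08, 0.0233) and with SCFA libraries 2, 4 and 5 (-1.66, 0.00201). mt-Tw had a log2 fold change of -0.07 (edgeR adjusted p = 0.918), and Cox8b, a nuclear subunit of complex IV, one of 0.04 (edgeR adjusted p = 0.95). With SCFA libraries 2, 4 and 5 both were called lower, at -1.61 (edgeR adjusted p = 0.0181) and -1.36 (edgeR adjusted p = 0.0251).

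Of 13 pigment cell genes tested 5 fell and 0 rose, beside 0.863% lower and 3.34% higher DEGs among all genes tested. The 5 were Mlana, Dct, Mlph, Pmel and Gpr143, which act in the melanosome or its transport. Mlana stood at 7.65, 8.52 and 5.51 CPM in the controls and 1.28, 1.73 and 3.74 CPM with SCFA (log2 fold change -1.70, SE 0.36, edgeR adjusted p = 0.019). Dct, the dopachrome tautomerase of melanin synthesis, stood at 58.0, 72.2 and 36.4 CPM against 23.2, 23.1 and 33.2 CPM (log2 fold change -1.07, SE 0.23, edgeR adjusted p = 0.0196). The groups did not overlap in either gene, while those of Pmel did. Of the 3 members above zero, Mitf, a transcription factor of pigment cells, had a log2 fold change of 0.50 (edgeR adjusted p = 0.142) and Rab38, of melanosome traffic, one of 0.56 (edgeR adjusted p = 0.225), both with all SCFA libraries above all controls, and Slc45a2, a melanosome transporter, one of 0.27 (edgeR adjusted p = 0.746). SCFA libraries 4 and 5 held Mlana at 0.84 and 0.65 CPM and Dct at 20.3 and 17.5 CPM, below every control. The number of members called was 1 without SCFA library 1, 2 without control library 2, 3 without control library 1 or 3, 2 without SCFA libraries 1 and 3, and 3 with the offset. The list's summed level was 138, 167 and 96.3 CPM in the controls and 68.2, 65.3 and 101 CPM with SCFA. Genes of the pigment epithelium gave 0 DEGs among 12 tested. Past the adjusted p alone were 5 lower and 1 higher members, beside 8.68% and 14.3% of all genes tested. With the offset 3 lower and 0 higher members were past it. The list's sum was 630, 738 and 619 CPM in the controls and 492, 551 and 509 CPM with SCFA. Rpe65, the retinoid isomerase that defines this epithelium, stood at 43.02, 42.96 and 43.3 CPM against 27.4, 31.3 and 31.6 CPM. Its log2 fold change was -0.52 (edgeR adjusted p = 0.0208), under the fold threshold.

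Among genes of surface epithelium, 3 keratins and Lad1, a basement membrane anchor protein, fell. Krt13 stood at 3.71, 4.15 and 1.36 CPM in the controls and 0.256, 0.345 and 0.485 CPM with SCFA, and fell by 3.07 (SE 0.51, edgeR adjusted p = 0.013). Krt15 fell by 2.52 (edgeR adjusted p = 0.0157), and Krt5 and Lad1 fell by 1.51 each (edgeR adjusted p = 0.0927 and 0.0491). The groups of Krt5 overlapped, and it was called in 0 of the 6 fits with a library left out and Lad1 in 2, against 6 for Krt13 and Krt15. These were 4 of the 11 members tested, beside 0.863% lower DEGs among all genes tested. The list's sum was 30.4, 28.5 and 20.1 CPM in the controls and 16.6, 12.3 and 17.5 CPM with SCFA. With SCFA library 1, SCFA library 3, control library 1 or control library 3 left out 2 members were called, without SCFA libraries 1 and 3 0 were, and with the offset 2 were. The part of tissue carried over at dissection in the pigment cell and keratin results was not tested.

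**Figure D5:**
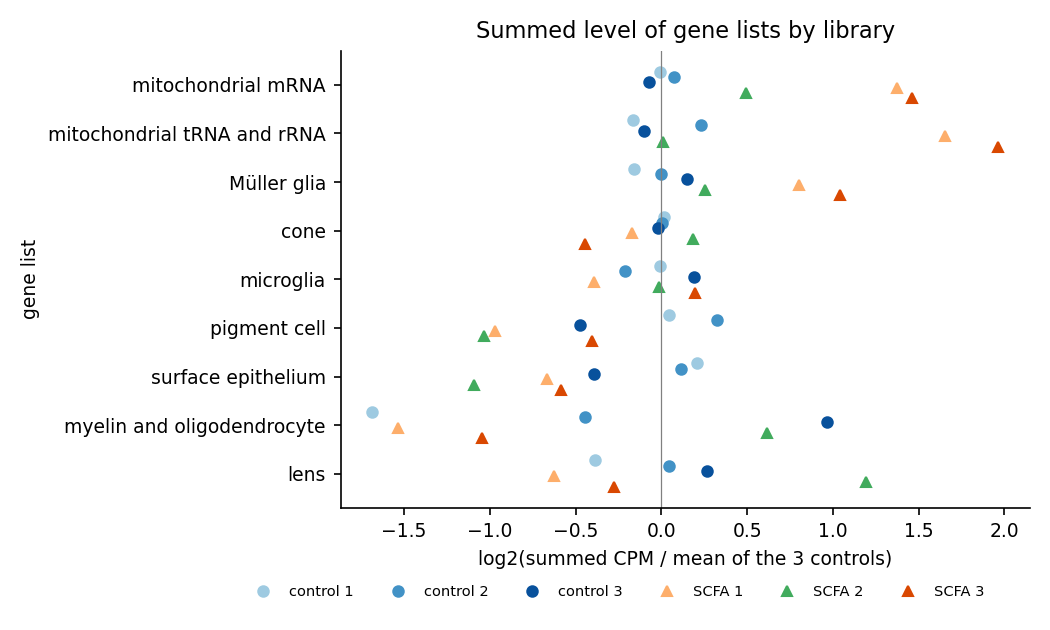
Log2 of the summed CPM of each gene list over the mean of the 3 controls (horizontal axis), 1 point per library, controls as circles and SCFA libraries as triangles. The mitochondrial and Müller glia sums are highest in SCFA libraries 1 and 3, the pigment cell and surface epithelium sums are lowest in SCFA library 2, and the myelin sum is highest in control library 3 (1109 CPM) and SCFA library 2 (869 CPM).

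Among the 10 higher and 10 lower genes that the rule placed first, Slc35f1, a member of a solute carrier family expressed in brain, stood at 23.3, 25.0 and 22.1 CPM in the controls and 83.6, 48.8 and 77.8 CPM with SCFA (log2 fold change 1.58, SE 0.19, edgeR adjusted p = 0.013). It was called without SCFA libraries 1 and 3 too (log2 fold change 1.06, edgeR adjusted p = 0.0146) and with the offset (1.36, 0.0233). Dbt, a subunit of the branched-chain keto acid dehydrogenase, stood at 8.67, 7.86 and 7.71 CPM against 16.7, 16.8 and 17.9 CPM (log2 fold change 1.08, SE 0.15, edgeR adjusted p = 0.013). For Dbt SCFA library 2 lay with the other SCFA libraries, and the log2 fold change in it alone was 1.06 (edgeR adjusted p = 0.0571), while with the offset it was 0.81 (edgeR adjusted p = 0.0256), under the fold threshold. Zfp937, a zinc finger gene, rose by 2.08, Svip, an inhibitor of endoplasmic reticulum-associated degradation, by 1.25, Gulp1, an engulfment adaptor, by 1.08, Bfar, an apoptosis regulator, by 1.06 and Cbx1, a heterochromatin protein, by 1.02 (edgeR adjusted p = 0.013 for each). The log2 fold changes of these 5 without SCFA libraries 1 and 3 were 1.43, 0.92, 0.76, 0.72 and 0.77. Bfar was not called without SCFA library 1 or 3, nor Cbx1 without SCFA library 1, SCFA library 3 or control library 3. Gm26736 and Gm17066, predicted genes, had log2 fold changes of 3.31 and 3.50, and with SCFA libraries 2, 4 and 5 of 0.71 and 0.67 (edgeR adjusted p = 0.579 and 0.479). Gm26736 stood at 0.67 and 0.59 CPM in SCFA libraries 4 and 5, below the controls.

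Outside the immediate early genes and keratins, the first lower genes included Shisa8, an auxiliary protein of AMPA receptors, which stood at 22.6, 26.7 and 29.0 CPM in the controls and 11.4, 13.8 and 13.2 CPM with SCFA (log2 fold change -1.03, SE 0.15, edgeR adjusted p = 0.013). Zdhhc22, a palmitoyltransferase, fell by 1.05 and Lrp3, a lipoprotein receptor family member, by 1.01 (edgeR adjusted p = 0.013 for each). The groups of these 3 genes did not overlap, but with SCFA libraries 2, 4 and 5 their log2 fold changes were -0.35, -0.19 and -0.26 and did not pass. Calls were lost for Shisa8 without SCFA library 1 or control library 3, for Zdhhc22 without SCFA library 3 or control library 3, and for Lrp3 without SCFA library 1, SCFA library 3, control library 2 or control library 3. Rn7sk, the 7SK small nuclear RNA that holds back the elongation factor P-TEFb, stood at 40.8, 43.3 and 30.7 CPM against 15.5, 17.9 and 17.4 CPM and fell by 1.18 (SE 0.15, edgeR adjusted p = 0.013). It belongs to a list of RNAs that are not polyadenylated or derive from ribosomal RNA. Of this list Gm23935 fell too (by 1.06, edgeR adjusted p = 0.0166), beside 0.863% lower DEGs among all genes tested. All 9 tested lay below zero, with a median of -0.54, and 6 were called without SCFA libraries 1 and 3, 4 without SCFA library 3 alone and 1 without SCFA library 2, without control library 3 or with the offset. Gm1821 fell by 1.15 (edgeR adjusted p = 0.013) and is annotated as a transcribed processed pseudogene, so that it may share reads with its parent gene; it was not called without SCFA library 1.

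Markers of retinal neurons gave 0 or 1 DEG per list, beside 4.2% of all genes tested that were DEGs. Rod genes gave 0 DEGs of 24 and cone genes 0 of 12. The summed level of the cone list was 2393, 2370 and 2333 CPM in the controls but 2099, 2686 and 1737 CPM with SCFA, a spread among the SCFA libraries on both sides of the controls. The sum of the rod list was 109928, 108108 and 105569 CPM in the controls and 91942, 142166 and 75634 CPM with SCFA, also on both sides of the controls. Of the 24 rod genes 17 lay below zero and 7 above, with a median log2 fold change of -0.16. The rod gene Gngt1, 1 of those above, passed the adjusted p under the fold threshold (log2 fold change 0.92, edgeR adjusted p = 0.0201). Amacrine and horizontal cell genes gave 0 DEGs of 17, bipolar genes 1 of 18 and ganglion cell genes 1 of 18. These were Car8, which modulates the inositol trisphosphate receptor (log2 fold change 1.03, edgeR adjusted p = 0.0156), and Tbr1, a transcription factor of some ganglion cells, at 2.15, 1.44 and 2.15 CPM against 6.39, 3.70 and 7.20 CPM (log2 fold change 1.58, edgeR adjusted p = 0.0163). Neither passed without SCFA libraries 1 and 3. With the offset Tbr1 was called (1.67, edgeR adjusted p = 0.0279) and Car8 was not (0.73, under the fold threshold), and Car8 was not called without SCFA library 1, SCFA library 3 or control library 1.

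Subunits of GABA and glycine receptors gave 3 higher DEGs of 22 tested. Among all genes tested 3.34% were higher DEGs, the share to set beside this list and the protocadherins below. Gabra2 stood at 13.1, 9.36 and 10.5 CPM against 25.8, 14.3 and 37.1 CPM (log2 fold change 1.22, edgeR adjusted p = 0.0243), and Gabrg1 rose by 1.41 (edgeR adjusted p = 0.0247) and Gabrb2 by 1.08 (edgeR adjusted p = 0.0746). The count was 0 without SCFA library 1 or control library 3, 1 without SCFA library 3 or control library 2, and 7 without SCFA library 2, and it was 0 with the offset and without SCFA libraries 1 and 3. Clustered protocadherins, adhesion proteins that give neurons their surface identity, gave 3 higher DEGs of 45, Pcdhb18, Pcdhb8 and Pcdhb7, with log2 fold changes of 1.15, 1.20 and 1.39 (edgeR adjusted p = 0.0234, 0.0457 and 0.0202). The count was 1 without SCFA library 1, control library 2 or control library 3, 2 without SCFA library 3 or control library 1, 8 without SCFA library 2, 0 without SCFA libraries 1 and 3, and 2 with the offset. Among other members, Pcdhgc4 stood at 2.91, 2.60 and 3.15 CPM against 3.77, 3.26 and 6.09 CPM (log2 fold change 0.59, edgeR adjusted p = 0.193), Pcdhac2 had a log2 fold change of -0.49 (edgeR adjusted p = 0.452) and Pcdhga6 one of 0.30 (edgeR adjusted p = 0.646). With SCFA libraries 2, 4 and 5 all of these were called higher, Pcdhgc4 at 1.22 (edgeR adjusted p = 0.0449), Pcdhac2 at 1.19 (0.0772) and Pcdhga6 at 1.15 (0.0328). SCFA libraries 4 and 5 held Pcdhgc4 at 8.55 and 8.66 CPM, Pcdhac2 at 6.54 and 5.11 CPM and Pcdhga6 at 3.13 and 2.53 CPM, above every control and every other SCFA library. Members of this family share exons and sequence, and the counting of shared reads is not given in the sources used here.

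Microglia markers gave 0 DEGs of 20 tested, and their summed level was 140, 121 and 160 CPM in the controls and 107, 139 and 161 CPM with SCFA. Beside 0.863% lower DEGs among all genes tested, 1 of 20 tested genes of disease-associated microglia fell. This was Gpnmb, a glycoprotein of lysosome-rich phagocytes that melanocytes also make, at 23.3, 35.9 and 31.04 CPM against 9.33, 18.4 and 15.8 CPM (log2 fold change -1.05, SE 0.24, edgeR adjusted p = 0.0213). Trem2, a lipid-sensing receptor of these cells, stood at 6.03, 6.09 and 11.7 CPM against 4.86, 4.29 and 5.12 CPM (log2 fold change -0.74, edgeR adjusted p = 0.101). Lyz2, a lysozyme, had a log2 fold change of -0.64 (edgeR adjusted p = 0.103) and Clec7a, a receptor for beta-glucan, one of 0.20 (edgeR adjusted p = 0.819). With SCFA libraries 2, 4 and 5, 5 genes of disease-associated microglia fell, and Trem2, Lyz2 and Clec7a were called lower, at -1.12 (edgeR adjusted p = 0.0481), -1.15 (0.0464) and -1.12 (0.0927). In SCFA libraries 4 and 5 Trem2 stood at 2.35 and 4.41 CPM, Lyz2 at 4.81 and 5.76 CPM and Clec7a at 0.503 and 1.13 CPM, below every control. Gpnmb was not called without SCFA library 1, without control library 2, or without SCFA libraries 1 and 3 (edgeR adjusted p = 0.172), but was with the offset (-1.02, edgeR adjusted p = 0.0366).

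Other immune lists held single DEGs, beside 3.34% higher and 0.863% lower DEGs among all genes tested. H2-T23, a non-classical MHC class I gene, stood at 14.1, 11.4 and 15.2 CPM against 4.86, 7.89 and 7.27 CPM and fell by 1.02 (edgeR adjusted p = 0.0181), 1 of 21 tested genes of antigen presentation. Oas1a, an interferon-induced antiviral enzyme, fell by 1.33 (edgeR adjusted p = 0.0729), 1 of 24. Cd55, which limits complement activation, rose by 1.21 (edgeR adjusted p = 0.0825), 1 of 15 complement genes. H2-T23 was not called without SCFA library 1, control library 1 or control library 3, and Oas1a and Cd55 were called only with all 6 libraries or without SCFA library 2. SCFA library 5 held H2-T23 at 24.5 CPM and Oas1a at 2.58 CPM, above every control, and library 4 at 4.86 and 0.280 CPM, below. With SCFA libraries 2, 4 and 5 their log2 fold changes were -0.14 (edgeR adjusted p = 0.867) and -0.22 (edgeR adjusted p = 0.859). Of 24 tested genes of gliosis and injury 3 fell: Lcn2, an iron-binding acute phase protein, by 1.13 (edgeR adjusted p = 0.0485), Edn2, an endothelin made by stressed photoreceptors, by 1.39 (edgeR adjusted p = 0.0329), and Emp1 by 1.17 (edgeR adjusted p = 0.049). Edn2 stood at 73.2, 20.4 and 39.9 CPM in the controls and 14.4, 21.7 and 14.7 CPM with SCFA, so that the groups overlapped, as they did for Lcn2. The count of this list was 0 without SCFA library 1, 1 without control library 1 or 2, 2 without SCFA library 3 or control library 3, 0 without SCFA libraries 1 and 3, 2 with the offset, and 5 with SCFA libraries 2, 4 and 5.

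Genes of SCFA sensing and use gave 1 DEG, and several receptors were too low to test. Of 12 receptors and transporters 6 were tested and 0 were DEGs, and the receptors Ffar2, Ffar3, Hcar1 and Hcar2 lay at or under 0.277 CPM in every library. Slc16a1, the monocarboxylate transporter MCT1, stood at 234, 243 and 214 CPM in the controls and 330, 360 and 310 CPM with SCFA, with no overlap (log2 fold change 0.53, edgeR adjusted p = 0.0242) and under the fold threshold. Among 18 tested genes of acetate, propionate and butyrate metabolism 1 rose, Acss3, a mitochondrial acyl-CoA synthetase that uses propionate (log2 fold change 1.29, edgeR adjusted p = 0.0831), which of the single-library omissions kept its call only without SCFA library 2. Histone deacetylase genes gave 0 DEGs of 11.

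The other lists gave few calls, beside 3.34% higher and 0.863% lower DEGs among all genes tested. Notch pathway genes held 2 higher DEGs of 18, Hey2, a target of Notch signalling, by 1.11 (edgeR adjusted p = 0.019) and Nrarp, a feedback inhibitor, by 1.32 (edgeR adjusted p = 0.0551), and the count was 0 without SCFA library 3 or control library 2, 1 without SCFA library 1, control library 1 or control library 3, 0 without SCFA libraries 1 and 3, and 2 with the offset. Single DEGs were Nrp1, a co-receptor of VEGF (log2 fold change 1.02, edgeR adjusted p = 0.0394), 1 of 23 genes of angiogenesis and hypoxia, Cdk1, the mitotic kinase (1.65, 0.0397), 1 of 10 of cell division, and Col3a1 (1.06, 0.0887, with overlapping groups), 1 of 26 of collagen and matrix. Lower were Nfil3, a circadian transcription factor (-1.19, 0.0202), 1 of 19, Gsto1, a glutathione transferase (-1.02, 0.0162), 1 of 24, Plin4, a lipid droplet protein (-1.09, 0.0452), 1 of 13, and Alas2, the haem synthesis enzyme of red cell precursors (-1.07, 0.0721), 1 of 5. Endothelial (17 tested), pericyte (9), cytosolic ribosomal (81), heat shock (12), cholesterol synthesis (19) and estrogen-related receptor (3) genes gave 0 DEGs. With 1 library left out at a time, Col3a1 and Alas2 kept their calls only without SCFA library 2. Nrp1 lost its call without SCFA library 1, SCFA library 3, control library 1 or control library 3, and Plin4 without SCFA library 1, SCFA library 3, control library 2 or control library 3. Cdk1 lost it without SCFA library 3, control library 2 or control library 3, Nfil3 without SCFA library 3, and Gsto1 without control library 1 or 2. Cmip, an adaptor protein, stood at 8.29, 7.64 and 6.92 CPM against 16.7, 10.7 and 17.4 CPM (log2 fold change 0.96, edgeR adjusted p = 0.0194), just under the fold threshold. It was called higher with the offset (1.07, edgeR adjusted p = 0.0303) and with SCFA libraries 2, 4 and 5 (1.40, edgeR adjusted p = 0.0198). SCFA libraries 4 and 5 held Cmip at 26.0 and 24.4 CPM, above every control and every other SCFA library. Nrarp was also called with SCFA libraries 2, 4 and 5 (1.60, edgeR adjusted p = 0.0296).

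The myelin genes, set apart, gave 0 DEGs of 24 tested, and their summed level was 176, 416 and 1109 CPM in the controls and 196, 869 and 275 CPM with SCFA. Mbp, a structural protein of myelin, ranged from 18.6 to 493 CPM, with the highest values in control library 3 and SCFA library 2. Myelinating cells belong to the optic nerve and not to the mouse retina. Without SCFA library 2, 13 of 25 myelin genes tested fell, with a median log2 fold change of -1.80, and without control library 3 the median turned from -0.39 to 0.31, with 0 called. With the list removed 691 genes were called. Lens genes varied in a like manner: their sum was 380 CPM in SCFA library 2 and 107 to 200 CPM in the other libraries, with 0 DEGs of 15, but 8 were higher without SCFA libraries 1 and 3 and 9 lower without SCFA library 2. Crybb2, a lens crystallin, stood at 14.5, 18.6 and 22.4 CPM in the controls and 4.35, 68.4 and 8.31 CPM with SCFA.

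The SCFA effect at 7 dpl in males was set against that in the other groups by a test of the difference. Against males at 14 dpl 0 genes of 16968 passed in edgeR (0.0%), with 2717 at an unadjusted p under 0.05 and 201 in DESeq2. Against males at 3 dpl 5 of 18350 passed (0.0272%), where a single SCFA library carried the earlier effect, and DESeq2 called 93. Against females at 7 dpl 5 of 17535 passed (0.0285%), with 114 in DESeq2. Without SCFA library 2 these counts were 958, 1033 and 698, and with any other of the 6 libraries left out they were 0 or 1, 0 to 6 and 0.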

How the data were processed

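RNA was measured in pooled whole retinas, and the authors deposited 1 table of raw counts per gene and library; mm10 and DESeq2 are named in the submitters' processing notes, while the aligner, counter, annotation and use of strand are not given in the sources used here. Gene names came from GENCODE M21 (54495 of 54532 identifiers matched). Genes were filtered with filterByExpr, scaled by TMM and tested with edgeR 4.0.16 (quasi-likelihood, R 4.3.3) on the 6 libraries alone, with Benjamini-Hochberg adjustment, an adjusted p threshold of 0.1 and an absolute log2 fold change over 1. CPM used TMM library sizes. Differences between groups were tested as interactions over the libraries of both. DESeq2 1.42.0 and the other settings are given in the closing section. On simulated counts for this comparison, run on 16129 genes, edgeR recovered 99% of 100 genes changed 4-fold and 100% of 100 changed 8-fold, with 13 false calls. The simulated libraries held no shift with GC content, and smaller changes were not simulated, so that recovery under those conditions was not tested. The members and gene lists were chosen with earlier results of these data known. Named genes were the 10 DEGs in each direction with the smallest adjusted p among those without overlap, genes the study names for this comparison, and up to 4 DEGs per list; exceptions are stated where they occur. Nothing in the labels says that replicate numbers pair the libraries, and the main fit did not pair them. No value was imputed. Results for 2 genes are not reported here.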

Additional observations from a re-analysis of the deposited data

Results flagged for a closer look

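The SCFA effect differed between males at 7 dpl and another group by the edgeR interaction test in the 9 genes given here, all named for that reason after their values were seen; differences are SCFA effects in males at 7 dpl minus the other group, on the log2 scale. Against males at 3 dpl, where the effect rests on 1 SCFA library and 2 controls, the differences were 2.30 for Fbln5, an elastic fibre protein (adjusted p = 0.0425), 2.49 for Ccnd2, a cyclin of early cell cycle (0.085), 2.71 for Dio2, a thyroid hormone deiodinase (0.0425), and 2.11 for Gja1, a gap junction protein (0.0871). The effects at 7 dpl were 0.85, 0.87, 0.89 and 0.70, none past the fold threshold, and those at 3 dpl were -1.47, -1.65, -1.84 and -1.44, none past the adjusted p.

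Against females at 7 dpl the differences were 3.57 for Gm26736, 6.68 for Gm43230, 3.803 for Gm49152, 5.10 for Gm44799 and 3.15 for Gm48700, predicted genes of which the function is not given here (edgeR adjusted p = 0.0762 for each). Their effects in males were 3.31, 5.84, 3.10, 3.64 and 2.15, and in females -0.28, -0.87, -0.72, -1.48 and -1.02. With SCFA library 1 or 3 of the males left out, 0 genes passed this comparison.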

How the results depend on the processing

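The 687 DEGs became 267 in 1 fit of all 43 libraries, 188 with all 5 male SCFA libraries, 39 without SCFA libraries 1 and 3, 252 with SCFA libraries 2, 4 and 5, 0 without control libraries 2 and 3, 408 with the GC and length offset and 3750 with no fold threshold. Leaving out 1 library gave 324 to 1755. DESeq2 called 639, RLE normalization 672, no filter 891 and a minimum of 10 counts 498. The difference between 7 and 14 dpl (0 genes) became 201 in DESeq2 and 0 to 958 with 1 library left out. That between 7 and 3 dpl (5) became 93 in DESeq2, 2 with a minimum of 10 counts and 0 to 1033 with 1 left out. That between sexes (5) became 114 in DESeq2, 0 with a minimum of 10 counts, 0 with female control library 2 kept and 0 to 698 with 1 left out. The fits without SCFA libraries 1 and 3, with SCFA libraries 2, 4 and 5, without control libraries 2 and 3, and with the offset were added after seeing the data.

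With the replicate block, 645 DEGs were called, and the differences against 14 dpl, 3 dpl and females gave 2, 2 and 0. For libraries of the same number, the correlations of their deviations from the group means were 0.161, -0.0253 and -0.0127. Those for libraries of different number ran from -0.172 to 0.132. With 3 libraries per group these values cannot decide whether the numbers pair libraries.

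Directions turned for mt-Rnr2 (-0.017 without SCFA libraries 1 and 3, -0.62 with SCFA libraries 2, 4 and 5), Col3a1 (-0.36 with the latter), mt-Tw (0.26 without SCFA library 2, 0.12 without control library 2), Clec7a (-0.27 with 43 libraries, -0.25 with 5 SCFA libraries, -0.71 to 0.51 with 1 library left out, lowest without SCFA library 3, -0.68 without SCFA libraries 1 and 3, -1.12 with SCFA libraries 2, 4 and 5, -0.16 with the offset), Pcdhac2 (0.67, 0.69, 0.015 and 1.19 with 43, with 5 SCFA, without 1 and 3, and with 2, 4 and 5), Pcdhga6 (-0.16 to 0.53 with 1 left out, lowest without SCFA library 2) and Cox8b (-0.45 and -0.43 with 43 and with 5 SCFA, -0.20 to 0.36 with 1 left out, below 0 without SCFA library 1, SCFA library 3 or control library 3, -0.90 without SCFA libraries 1 and 3, -1.36 with 2, 4 and 5). The causes were not tested. A fit without SCFA libraries 1 and 3 has 1 treated library, assumed to vary like the controls. Depth limits genes near 0.2 CPM, the level of 3 counts in these libraries.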
